A study of Mus musculus with 6 samples.

Results

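Glycolysis breaks glucose down to pyruvate in the cytosol, and the genes described here encode 10 of its enzymes, lactate dehydrogenase A included. They were Gpi1, Pfkp, Aldoa, Tpi1, Gapdh, Pgk1, Pgam1, Eno1, Pkm and Ldha, taken as the rows of the deposited count table whose Entrez identifier is that of the listed mouse symbol. All 10 had a row among the 23725 genes of the table, and 9 of the 10 had enough counts to be among the 5066 genes tested. The recipient cells were 3T3-L1, fibroblasts from mouse embryos kept as a line that can form adipocytes, in 3 plates given extracellular vesicles (EVs) and 3 control plates, all for 24 h. The EVs were from MLP29 cells, an epithelial line of mouse liver progenitors that goes back to a single clone, and a plate received on average 20 µg of EV protein. The control preparation went through the same isolation, starting from medium that had held no cells. All plates of both groups had EV-depleted serum and HEPES in the medium, no genotype was altered, and each plate had a preparation of its own. EVs isolated by differential centrifugation can carry other particles along, so that the comparison is between 2 kinds of preparation.

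The pathway falls into an upper stage, which spends ATP to phosphorylate glucose and split it into triose phosphates, and a lower stage, which makes ATP and NADH and ends in pyruvate. Lactate dehydrogenase then turns pyruvate into lactate and returns NAD+ to the pathway. Cultured fibroblasts run glycolysis even where oxygen is present, and the transcription factors HIF-1 and MYC are known to act on many of its genes. The upper-stage enzymes measured here were Gpi1, Pfkp and Aldoa, and Gapdh, Pgk1, Pgam1, Eno1 and Pkm form the lower stage. Tpi1 joins both stages and can be counted with the upper one.

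After EVs, the counts listed under 6 of the 10 genes fell and those under none rose, with an adjusted p under 0.05 in edgeR's quasi-likelihood test (Benjamini-Hochberg over all genes tested). The 6 genes were Tpi1, Gapdh, Pgk1, Pgam1, Pkm and Ldha, and their counts were between 24.4% lower, in Pkm, and 55.5% lower, in Gapdh. Of all genes tested, 14.4% fell and 7.68% rose by the same threshold, 22.1% in all. These were 732 lower and 389 higher genes. With scaling by the summed counts of the tested genes alone they were 970 and 90. With TMM factors from genes without an opposite-strand overlap they were 543 and 1102. Under these scalings, 6 and 5 of the glycolysis genes fell. Gpi1, Pfkp and Aldoa did not pass the threshold, and Eno1 was not tested for its low counts. In 7 of the 10 genes, the highest EV library was below the lowest control after scaling to a common library size with TMM factors (normalized CPM here). Without the untested Eno1, it was so in 6 of the 9 tested genes, beside 21.5% of all genes tested, and a separation in either direction held for 39.4%. The median log2 fold change of the 9 genes was -0.82, beside 0.01 over all genes tested. By DESeq2's Wald test, which calls fewer genes, 3 of the 10 fell (Tpi1, Gapdh and Pgk1), beside 5.76% of all genes. With a library left out, edgeR called 2 to 6 of the 10, with 2 (Gapdh and Pgk1) without control library 2 and 3 (Gapdh, Pgk1 and Pgam1) without EV library 4.

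The libraries summed to between 508599 and 665465 counts, a small part of the sequencing depth named in the study's methods. The kit keeps the strand of a transcript, but the strand setting of the counting is not given in the sources used here, so that reads of a gene and of a partner on the opposite strand cannot be told apart, and a count listed under a gene is not taken as its mRNA level. Of genes with an exon overlapped by another gene's exon on the opposite strand, 8.71% fell and 13.3% rose, beside 19.4% and 2.88% of genes without one. The 12 fibroblast and preadipocyte markers examined, among them Col1a1, Vim and Pdgfra, were all counted and tested, 8 of them fell and none rose (14.4% and 7.68% of all genes), with a summed level of 2815 to 3221 normalized CPM in control and 1253 to 1605 in EV libraries. Of 12 markers of liver progenitors and epithelium, 10 were at or below 3 counts in every library and 8 were at 0, among them the defining Alb, Afp, Epcam and Krt19. The sum of the 12 was 55.4 to 92.7 in control and 34.5 to 42.3 in EV libraries. The markers above 3 counts were Sox9, with 9 to 13 per library, and Spp1, with 17, 45 and 39 in control and 7, 9 and 7 in EV libraries. Spp1 fell (log2 fold change -1.91, adjusted p = 1.49e-05, edgeR). Of 8 mature adipocyte markers, 5 were at 0 in all libraries, with sums of 205 to 268 and 165 to 190. Most of these sums came from Lpl, with 108, 158 and 149 counts in control and 76, 101 and 97 in EV libraries. Lpl fell (log2 fold change -0.40, adjusted p = 0.0366, edgeR). Of 6 macrophage markers, 5 were at or below 3 counts, with sums of 3.69 to 11.4 and 11.5 to 12.7. Fewer cells of a type and less RNA per cell cannot be told apart in these libraries. The part of these values in the results was not tested.

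The sequences before the start sites are shown for 2 genes that fell, Ldha and Pgk1, and for Gpi1 and Pfkp, which did not pass the threshold, since ACGTG and GCGTG are the core letters of the element bound by HIF-1. Each is the 250 bases upstream of a RefSeq start site in GRCm38.p6, read 5′ to 3′ on the strand of the gene, and capitals mark ACGTG or GCGTG on either strand, with overlapping matches joined.
Ldha, chr7:46845554-46845803, plus strand: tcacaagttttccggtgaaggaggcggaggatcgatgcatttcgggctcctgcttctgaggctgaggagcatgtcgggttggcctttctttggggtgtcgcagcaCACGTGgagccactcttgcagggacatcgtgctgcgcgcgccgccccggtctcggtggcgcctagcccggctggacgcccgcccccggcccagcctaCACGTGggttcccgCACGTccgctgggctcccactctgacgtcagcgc
Pgk1, chrX:106186850-106187099, plus strand: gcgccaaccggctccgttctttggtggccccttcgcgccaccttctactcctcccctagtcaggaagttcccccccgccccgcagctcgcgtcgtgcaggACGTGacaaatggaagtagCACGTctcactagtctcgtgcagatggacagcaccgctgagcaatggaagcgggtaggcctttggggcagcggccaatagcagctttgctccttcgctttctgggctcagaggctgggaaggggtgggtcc
Gpi1, chr7:34230337-34230586, minus strand: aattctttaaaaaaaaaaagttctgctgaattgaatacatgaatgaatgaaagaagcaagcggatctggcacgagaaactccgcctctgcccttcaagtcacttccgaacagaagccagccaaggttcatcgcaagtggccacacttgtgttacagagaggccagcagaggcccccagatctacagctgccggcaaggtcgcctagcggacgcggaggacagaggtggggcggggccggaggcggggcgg
Pfkp, chr13:6648772-6649021, minus strand: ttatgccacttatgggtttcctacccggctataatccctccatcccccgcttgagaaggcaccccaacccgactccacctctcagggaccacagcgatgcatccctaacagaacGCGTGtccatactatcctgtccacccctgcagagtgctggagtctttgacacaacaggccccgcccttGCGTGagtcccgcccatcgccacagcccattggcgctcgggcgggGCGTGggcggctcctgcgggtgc
The Ldha window held 5 matches to ACGTG, 4 of which came from 2 copies of the palindrome CACGTG, the E-box letters that MYC can bind and that read ACGTG on both strands. The Pgk1 window held 2 matches to ACGTG, the Pfkp window 3 to GCGTG, and the Gpi1 window none. Over the 16 windows of the 10 genes, 8 genes had either core in at least 1 window, which 41.8% of 26734 mouse genes had in theirs. The 10 genes had more windows each than the 32536 windows of all genes give on average, and so more room for a match. Counted by window, 12 of 16 held either core, against 38.8% of all windows. Some windows of Eno1 and of Aldoa overlap each other, so that a match can be counted in both. The windows were 50.4% to 71.2% GC, and the shares of all genes were not matched for GC. ACGTG was found in 5 of the 10 genes against 18.6% of all genes, and GCGTG in 5 of 10 against 31.1%. The letters GGGCGG, a core of the GC box, stood in the windows of 8 genes against 35.6% of all. Of the 6 genes that fell, Tpi1 had neither core, and of the 3 tested genes that did not pass, Pfkp and Aldoa had one. These matches describe letters and no binding was measured.

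Gpi1 encodes glucose-6-phosphate isomerase, which turns glucose 6-phosphate into fructose 6-phosphate. It lies on chromosome 7 (34201327-34230336 in GRCm38, as all positions here) and had 123, 122 and 133 counts in control libraries 1, 2 and 3, and 121, 132 and 106 in EV libraries 1, 2 and 4. The groups overlapped, at 211 ± 14.6 normalized CPM in control and 230.5 ± 26.3 in EV libraries (SD, n = 3 in each group here and below). The log2 fold change was 0.13 with a 95% interval from -0.15 to 0.40, which leaves room for a modest change either way (adjusted p = 0.522, edgeR). It was -0.010 when scaled by the summed counts of the tested genes alone. With TMM factors from genes without an opposite-strand overlap it was 0.30 (adjusted p = 0.0971, edgeR). Of its exon bases, 741 or 11.5% are overlapped on the opposite strand by the long noncoding gene Gm26762, which had no row of its own.

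Pfkp encodes the platelet type of phosphofructokinase, the enzyme of the committed step. Located on chromosome 13 (6579874-6649060), it had the highest counts of the 10 genes, with 297, 396 and 432 in control and 335, 355 and 351 in EV libraries. Here too the groups overlapped, and EV library 1 was the highest of the 6 once scaled, at 708 normalized CPM. The means were 622 ± 65.9 and 669 ± 41.5, for a log2 fold change of 0.10 with an interval from -0.11 to 0.30 (adjusted p = 0.513, edgeR). It was -0.039 when scaled by the summed counts of the tested genes alone and -0.025 without control library 1. With TMM factors from genes without an opposite-strand overlap it was 0.27 (adjusted p = 0.0556, edgeR). The gene Pitrm1, which encodes a mitochondrial peptidase, overlaps 748 exon bases of Pfkp (5.58%) on the opposite strand. Counts under Pitrm1 fell, from 34, 31 and 22 to 14, 13 and 11 (log2 fold change -0.99, adjusted p = 0.0114, edgeR).

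Aldoa encodes aldolase A, which splits fructose 1,6-bisphosphate into the triose phosphates. On chromosome 7 (126795234-126800994), it had 82, 104 and 94 counts in control and 57, 78 and 76 in EV libraries. All 3 EV libraries were below all 3 controls in normalized CPM, though the highest EV value, 145.7, almost met the lowest control value, 146.8. The means of 156 ± 11.8 and 134.5 ± 12.9 gave a log2 fold change of -0.21, with an interval from -0.52 to 0.11 that includes no change (adjusted p = 0.345, edgeR). The opposite-strand overlap was 25 bases, with Fam57b, which had no counts.

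Tpi1 encodes triosephosphate isomerase, which makes both products of aldolase usable by the lower stage. The gene is on chromosome 6 (124810586-124814158). Its counts were 52, 84 and 59 in control and 31, 41 and 22 in EV libraries. Control library 2 was the highest and EV library 4 the lowest, and the groups did not overlap. The normalized CPM fell from 108 ± 24.6 to 59.98 ± 15.8, with a log2 fold change of -0.85 (interval -1.27 to -0.43, adjusted p = 0.00247, edgeR). The call was lost without control library 2 or without EV library 4, at an adjusted p of 0.0581 and 0.0512 (edgeR). On the opposite strand, 34 exon bases are shared with Spsb2, which had 7 to 15 counts per library.

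Gapdh encodes glyceraldehyde-3-phosphate dehydrogenase, which oxidises glyceraldehyde 3-phosphate with NAD+ and is often used as a reference gene in qPCR and blots. It is also on chromosome 6 (125161852-125166467). It had 236, 296 and 258 counts in control and 69, 114 and 123 in EV libraries, so that the lowest control was far above the highest EV library and EV library 1 was the lowest. The mean level fell from 440 ± 39.3 to 194 ± 45.4 normalized CPM. Its log2 fold change of -1.17 (SE 0.13, interval -1.44 to -0.90) had the lowest adjusted p of the 10 genes, 9.02e-10 (edgeR). An overlap of 68 exon bases with Iffo1 on the opposite strand was with a gene of 19 to 24 counts per library, whose log2 fold change was 0.04.

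Pgk1 encodes phosphoglycerate kinase 1, which makes the first ATP of the lower stage. Counts under this X-linked gene (106187100-106203699) were 50, 47 and 49 in control and 12, 36 and 18 in EV libraries. The controls were close together, while EV library 2 had well over the counts of the other two EV libraries and was still below every control. The level fell from 81.8 ± 9.14 to 41.1 ± 19.9 normalized CPM (log2 fold change -0.94, interval -1.43 to -0.46, adjusted p = 0.00334, edgeR). Without EV library 2 the log2 fold change was -1.43. None of its exon bases are overlapped on the opposite strand, which was also true of Pgam1, Eno1, Pkm and Ldha.

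Pgam1 encodes phosphoglycerate mutase 1, which moves the phosphate of 3-phosphoglycerate. It is on chromosome 19 (41911871-41918665) and had 22, 49 and 30 counts in control and 9, 20 and 12 in EV libraries. Control library 2 was again the highest of its group, and EV library 2 of the other. The groups did not overlap, at 55.7 ± 21.0 and 25.8 ± 8.45 normalized CPM, and the level fell by 1.09 on the log2 scale (SE 0.29, adjusted p = 0.00477, edgeR). Without control library 2 the adjusted p was 0.107, and in DESeq2's Wald test it was 0.0609, so that this call depends on both choices.

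Eno1 encodes enolase 1, which forms phosphoenolpyruvate. On chromosome 4 (150236708-150248879), it had only 6, 21 and 7 counts in control and 5, 4 and 5 in EV libraries. Control library 2 was set apart from the other two, and the other controls were just above the EV libraries once scaled, at 10.9 against a highest EV value of 10.6 normalized CPM. The means were 18.7 ± 13.4 and 9.07 ± 1.82. With no filter on low counts the log2 fold change was -0.97 with an adjusted p of 0.223 (edgeR). At this depth, no change was detectable in counts listed under Eno1 alone, and its copy Eno1b is followed below.

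Pkm encodes the muscle-type pyruvate kinase, whose M2 splice form predominates in dividing cells. The counts do not separate the splice forms. The gene is on chromosome 9 (59656576-59679372), with 221, 241 and 204 counts in control and 121, 182 and 137 in EV libraries. It was the called gene whose groups overlapped, since EV library 2, at 320.6 normalized CPM, was above control library 3, at 318.6. The mean level fell from 373 ± 47.6 to 280 ± 35.6, with a log2 fold change of -0.40 (interval -0.65 to -0.15, adjusted p = 0.0157, edgeR). Its call was lost in 7 of the 16 alternative settings, among them without control library 1, control library 2, EV library 1 or EV library 4, with an adjusted p of up to 0.170 (edgeR with TMM factors from genes that have no opposite-strand overlap). A noncoding gene on the same strand, Gm49759, shares 767 of its exon bases.

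Ldha encodes the A subunit of lactate dehydrogenase. It is on chromosome 7 (46842274-46855627), and its counts were 32, 44 and 36 in control and 10, 30 and 15 in EV libraries. As for Pgk1, EV library 2 was close to the controls and below all of them, and EV library 1 was the lowest. The level fell from 62.3 ± 8.14 to 34.3 ± 16.6 normalized CPM (log2 fold change -0.82, interval -1.35 to -0.30, adjusted p = 0.0184, edgeR). The log2 fold change was -1.30 without EV library 2 and -0.59 without EV library 1. The call was lost in 5 of the 16 settings, among them without control library 2, EV library 1 or EV library 4, with an adjusted p of up to 0.13 (DESeq2's Wald test).

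**Figure D1:**
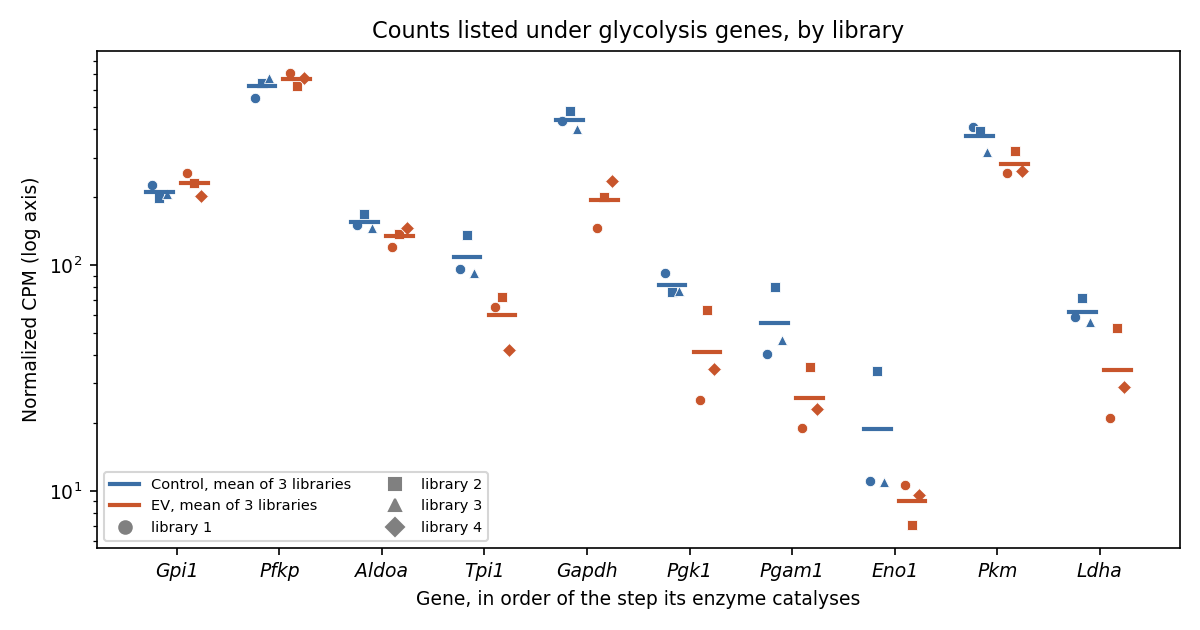
Normalized CPM (log axis) of each of the 10 genes in the 6 libraries, in the order of their steps, with control in blue, EV in orange, a marker shape per library number and a bar for the mean of 3 libraries. The ranges of EV and control points overlap for Gpi1 and Pfkp, with the highest point in an EV library, and the EV points lie below all control points for Tpi1, Gapdh, Pgk1, Pgam1 and Ldha, while for Pkm 1 EV library is just above the lowest control.

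By step, the 9 tested genes thus split at Tpi1. None of Gpi1, Pfkp and Aldoa, which act before Tpi1, passed the threshold, and all 6 of the tested genes from Tpi1 to Ldha did. Tpi1 makes no ATP or NADH and can be counted with the upper stage, so that this is not a clean split by stage. Its place was chosen with the changes known. The intervals of Gpi1 and Pfkp, whose lower ends were -0.15 and -0.11, did not meet those of Tpi1, Gapdh, Pgk1, Pgam1 and Ldha, whose upper ends were at or below -0.30. Nor did they meet that of Pkm, though its upper end of -0.152 almost met the lower end of Gpi1, -0.146. The interval of Aldoa met those of Tpi1, Pgk1, Pgam1, Pkm and Ldha but not that of Gapdh. A split that needs no scaling between libraries is the ratio of the summed counts of the 7 genes from Tpi1 to Ldha, Eno1 included, over the sum of Gpi1 and Pfkp. It was 1.47, 1.51 and 1.14 in control and 0.564, 0.877 and 0.727 in EV libraries, so that the groups did not overlap. Since the genes were divided with their changes known, and the upper-stage gene Aldoa was left out of both sums, this ratio is a description and was not tested. Gpi1 and Pfkp were also the genes with the longest opposite-strand overlap, 741 and 748 exon bases against 0 to 68 in the other 8, and the part of the overlap in the split was not tested.

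**Figure D2:**
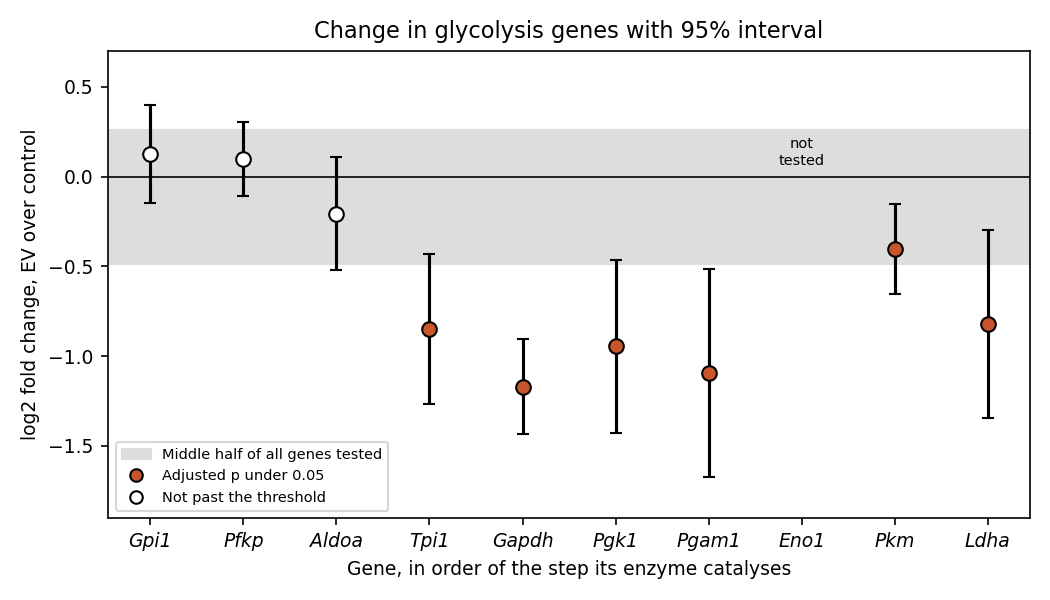
Log2 fold change (EV over control) of each gene with its 95% interval, in the order of the steps, with filled points for an adjusted p under 0.05. The grey band spans the log2 fold changes from the lower to the upper quartile of all genes tested, -0.49 to 0.26, and Tpi1, Gapdh, Pgk1, Pgam1 and Ldha have their points below it.

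Ratios between single genes of a library need no scaling either. Gapdh over Pfkp was 0.795, 0.748 and 0.597 in control libraries and 0.206, 0.321 and 0.350 in EV libraries. Gapdh made up 19.8% to 21.1% of the counts of the 10 genes in control and 8.96% to 14.2% in EV libraries, while Pfkp went from between 26.5% and 33.2% to between 35.8% and 43.5%. The last enzymes of the pathway were less clearly apart from each other, since Ldha over Pkm was 0.145, 0.183 and 0.177 in control and 0.0826, 0.165 and 0.110 in EV libraries, with overlap. All 10 genes together held 0.196% to 0.229% of a control library's counts and 0.151% to 0.158% of an EV library's.

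Count depth sets how small a change could be seen. With a mean count of 20 to 50 over the 6 libraries, Pgam1, Ldha, Pgk1 and Tpi1 had standard errors of 0.21 to 0.29 on the log2 scale, beside a median of 0.241 for the 1508 genes of that depth. All 4 of these genes fell, as did 17.4% of the genes in that range. Between 50 and 200 counts stood Aldoa, Gpi1, Pkm and Gapdh, with standard errors of 0.13 to 0.16 beside a median of 0.157, and Pkm and Gapdh fell, beside 14.6% of 1188 genes. Pfkp alone was above 200 counts, where 2.95% of 508 genes fell and where the lower and upper quartiles of the log2 fold change were 0.17 and 0.32. Its own value of 0.10 was below that range. Among genes with no opposite-strand overlap, 22.0% fell between 20 and 50 counts, 22.6% between 50 and 200, and 7.75% above 200. Pgam1, Ldha, Pgk1 and Pkm are of that kind, and all 4 fell. In the range of 50 to 200 counts, the quartiles were -0.11 and 0.28, with Gpi1 between them and Aldoa, Pkm and Gapdh below. In the range of 20 to 50 counts, they were -0.50 and 0.22, and the 4 genes were all below -0.80. Gapdh and Pkm had nearly the same depth but log2 fold changes of -1.17 and -0.40, with intervals that did not meet.

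**Figure D3:**
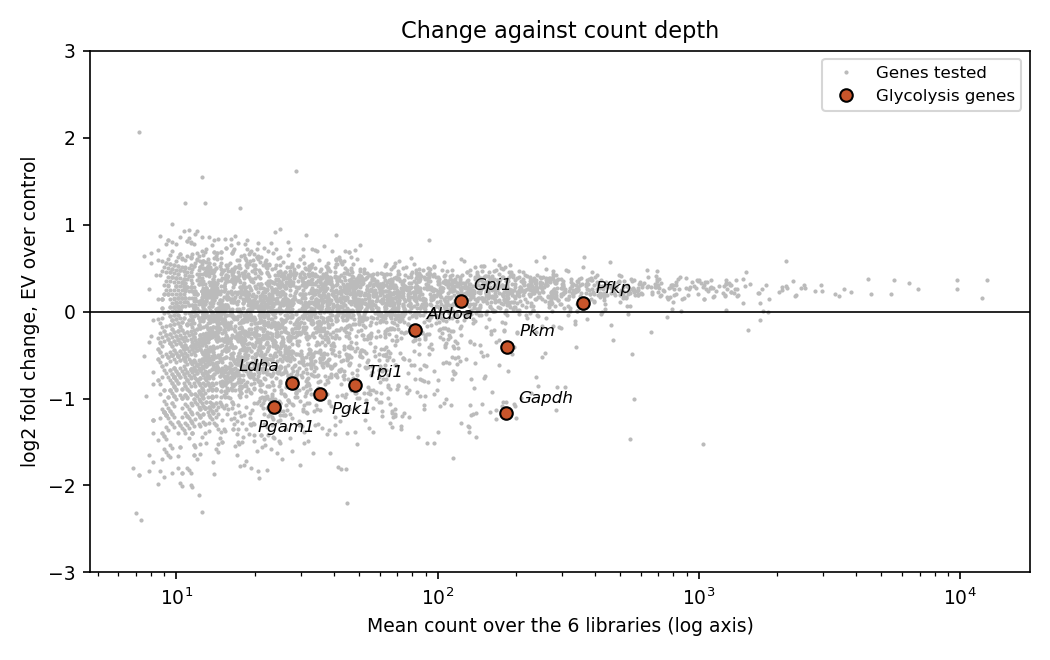
Log2 fold change (EV over control) against the mean count over the 6 libraries (log axis), with every tested gene in grey and the 9 tested glycolysis genes in orange. Grey points at high counts gather above 0, and Gapdh lies far below them at a depth of 183 counts.

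To compare counts between genes, the normalized CPM was divided by a transcript length. This was the longest transcript with the gene's Entrez identifier in the basic set of GENCODE vM21. These levels are of counts listed under a gene and are not taken as mRNA levels. The strand setting is not given, and reads shared with copies, described below, may change the order. In control libraries, Gapdh was the highest at 310 ± 27.7 CPM per kb, ahead of Pkm (153 ± 19.6) and Pfkp (150.1 ± 15.9), which did not differ beyond their spread. Aldoa followed at 101 ± 7.60, ahead of Gpi1 (73.2 ± 5.08) and Tpi1 (67.4 ± 15.3), another pair within their spread, and Pgk1 (44.8 ± 5.01). Ldha at 34.3 ± 4.49 and Pgam1 at 31.4 ± 11.8 were again not apart, and Eno1 was the lowest at 9.24 ± 6.59. In EV libraries Pfkp was the first, at 161 ± 10, ahead of Gapdh (137 ± 32.0) and Pkm (115 ± 14.7), with Gapdh not apart from either. The levels in EV libraries further down were 86.9 ± 8.32 for Aldoa, 79.9 ± 9.11 for Gpi1, 37.3 ± 9.81 for Tpi1, 22.5 ± 10.9 for Pgk1, 18.9 ± 9.12 for Ldha, 14.5 ± 4.76 for Pgam1 and 4.47 ± 0.897 for Eno1. Of these neighbours, Aldoa and Gpi1, Tpi1 and Pgk1, Pgk1 and Ldha, and Ldha and Pgam1 were within their spread. With the length of all exons joined, chosen after the data were seen, Gapdh and Pkm kept the first and second place in control libraries, while Gpi1 moved from place 5 to place 7, and in EV libraries Pkm came first, Pfkp second and Gapdh the third.

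Several of these genes have near-identical copies, with which a counting program may have to share reads. Each gene's longest transcript in the basic set was cut into stretches of 50 bases, the read length. For Gapdh, 82.5% of these were also present in transcripts of other genes, 213 of these 218 genes being pseudogenes. The share was 72.2% for Eno1, 68.0% for Pgk1, 41.5% for Pgam1, 30.5% for Pkm, 19.3% for Gpi1, 16.6% for Ldha, 13.5% for Aldoa and 7.51% for Tpi1, and no stretch of Pfkp was shared. Counts of genes with a high share are uncertain for this reason, since the treatment of reads that match several places is not given in the sources used here. Copies of Pgk1, Pgam1, Pkm and Tpi1 had no row in the table, nor had Gm1840, a pseudogene with 18.6% of the Gpi1 stretches, while each of the other genes that share with Gpi1 held at most 0.494% of them. Copies with a larger share and more than a few counts could be followed for Gapdh and Eno1.

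The processed pseudogene Gm12070, which holds 65.9% of the Gapdh stretches, had 160, 210 and 172 counts in control and 40, 60 and 94 in EV libraries. It fell by 1.28 on the log2 scale (adjusted p = 1.24e-08, edgeR), with the groups apart. The pseudogenes Gm5523 and Gm5069 fell as well, by 1.29 and 1.05 (adjusted p = 0.00208 and 0.00489, edgeR). Gm5177, Gm6981 and 3000002C10Rik had log2 fold changes of -1.01, -0.81 and -0.82 and did not pass the threshold (adjusted p = 0.0528, 0.0663 and 0.148, edgeR). In sum, the 8 genes with Gapdh stretches and any counts, the protein-coding Peli2 among them, had 270, 356 and 306 counts in control and 77, 117 and 183 in EV libraries, similar in number to those of Gapdh itself.

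Eno1b, an intronless enolase copy that shares 70.5% of the Eno1 stretches, was counted more than Eno1, with 53, 70 and 56 counts in control and 17, 18 and 28 in EV libraries. It fell by 1.30 on the log2 scale (SE 0.23, adjusted p = 1.81e-05, edgeR). The ratio of Eno1b to Eno1 was 8.83, 3.33 and 8 in control and 3.40, 4.50 and 5.60 in EV libraries, with overlap. The counts of copies holding at least 5% of a gene's stretches were also added to it, an alternative chosen after the data were seen. Eno1 with Eno1b then had 59, 91 and 63 counts in control and 22, 22 and 33 in EV libraries. This sum fell by 1.26 (adjusted p = 1.2e-05, edgeR). Most of it came from Eno1b, which passed on its own, so that the call does not bear on Eno1 alone. In that fit 7 of the 10 genes were called, all lower and with the Eno1 sum among them, beside 730 lower of all 5061 genes tested. Gapdh then had 484, 639 and 550 counts in control and 142, 226 and 294 in EV libraries.

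**Figure D4:**
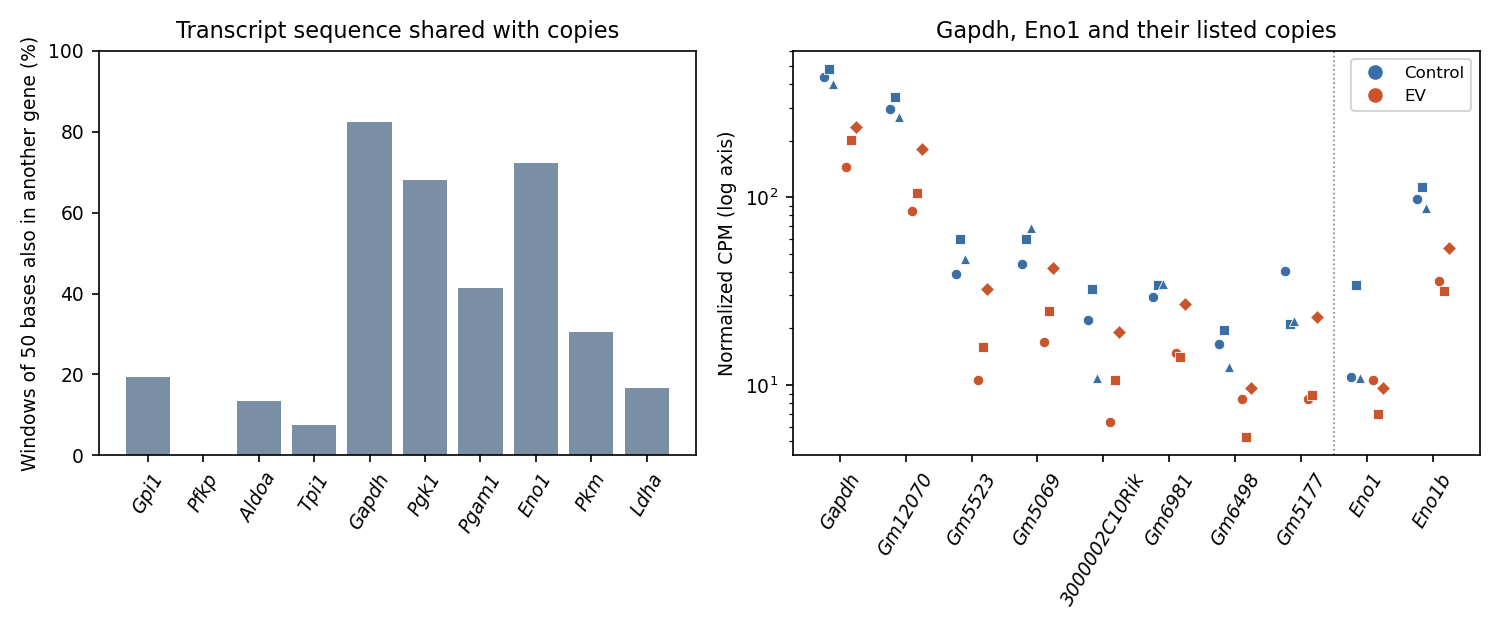
Left, the share (%) of 50-base stretches of each gene's longest transcript in the basic set that other genes also hold. Right, normalized CPM (log axis) per library of Gapdh with its listed pseudogenes and of Eno1 with Eno1b, control in blue and EV in orange. The bars are the highest for Gapdh, Eno1 and Pgk1 and at 0 for Pfkp, and the EV points of Gm12070 and Eno1b lie below their control points, like those of Gapdh.

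Other genes of the pathway were taken from 8 lists of 97 genes, all with a row in the table. Of these, 26 were at or below 3 counts in every library and 33 were tested, 6 of which fell, 1 rose and 26 did not pass. The 7 called genes were 21.2% of the 33, near the 22.1% of all genes tested, so that the lists as a whole were called no more than the table was. The median log2 fold change of the 33 was -0.28. Of 19 genes listed as isozymes of the same steps, 7 were tested. Ldhd and Pgam5 stood in that list by name, but their products do not catalyse the steps of Ldha and Pgam1. Eno1b fell, as above, and Ldhd, which encodes the mitochondrial D-lactate dehydrogenase, rose, from 167, 229 and 262 counts to 216, 271 and 247 (log2 fold change 0.36, SE 0.11, adjusted p = 0.0175, edgeR). The call was lost in 6 of the 16 alternatives (adjusted p of up to 0.238). Among them were scaling by the summed counts of the tested genes alone and the fits without control library 1, control library 2, EV library 2 or EV library 4. The raw counts of Ldhd overlapped between the groups, and 2246 of its exon bases are overlapped on the opposite strand. The liver and muscle phosphofructokinases Pfkl and Pfkm, the neuronal enolase Eno2, the muscle mutase Pgam2 and the sperm Gapdhs had log2 fold changes between -0.34 and 0.30 that did not pass. Most of the other genes of this list were barely counted. Aldoc and Pklr had 0 or 1 count per library, the heart-type subunit Ldhb 1 to 6, the muscle enolase Eno3 1 to 5, Pgam5 2 to 14 and Aldoart1 0 to 4, and Ldhc, Ldhal6b, Eno4, Pgk2 and Aldoart2 were at 0 in all 6.

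Of 10 genes of glucose entry, the hexokinases Hk1 and Hk2 were tested, and neither passed (log2 fold changes -0.06 and -0.68). Of 10 genes for the control of phosphofructokinase and for side reactions, Pfkfb2 was tested, at -0.04. Among 16 genes of lactate export and pyruvate entry into mitochondria, 4 were tested and Bsg fell. Bsg, which encodes basigin, the chaperone that brings lactate transporters to the cell surface, had 61, 60 and 51 counts in control and 13, 20 and 25 in EV libraries (log2 fold change -1.36, SE 0.23, adjusted p = 1.29e-05, edgeR), and it passed in all 16 alternatives. The lactate exporter Slc16a3 had 13, 28 and 28 counts in control and 8, 27 and 25 in EV libraries and did not pass. Of 7 genes of gluconeogenesis, Pck2 alone was tested, at -0.99 and an adjusted p of 0.0522 (edgeR).

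Of 9 genes of the pentose phosphate pathway, which branches off at glucose 6-phosphate, 4 were tested and the transketolase gene Tkt fell, from 13, 22 and 14 counts to 5, 4 and 10 (log2 fold change -1.15, adjusted p = 0.0262, edgeR). Its call was lost in 5 of the 15 alternatives that tested it, in DESeq2's Wald test, with no count filter and without control library 2, EV library 1 or EV library 2 (adjusted p of up to 0.182). Of 8 genes of branches at triose phosphate and 3-phosphoglycerate, 6 were tested and Psat1 and Shmt2 fell. Psat1, phosphoserine aminotransferase, went from 13, 19 and 25 counts to 7, 11 and 5 (adjusted p = 0.0206, edgeR), and Shmt2, the mitochondrial serine hydroxymethyltransferase, from 14, 24 and 22 to 7, 14 and 4 (adjusted p = 0.0247, edgeR). Both calls were lost in 6 of the 15 alternatives that tested them, among them DESeq2's Wald test, the replicate block and the fits without control library 2 or EV library 4, that of Psat1 also without control library 3 and that of Shmt2 also without EV library 1 (adjusted p of up to 0.279 and 0.213). Of other genes of serine and glycine synthesis in the list, Phgdh, Psph and Shmt1 had log2 fold changes of -0.37, 0.13 and 0.12 and did not pass. Of 18 regulators of glycolysis genes and other HIF-1 targets, 8 were tested and Hif1a, the oxygen-regulated subunit of HIF-1, fell, from 34, 34 and 27 counts to 9, 19 and 13 (log2 fold change -1.01, adjusted p = 0.00722, edgeR). This call was lost in DESeq2's Wald test (adjusted p = 0.0731). Its exons are overlapped over 330 bases on the opposite strand. Vegfa, Myc, P4ha1, P4ha2, Ero1l, Arnt and Car9, which include further targets of HIF-1, had log2 fold changes between -0.85 and 0.07 that did not pass.

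The 9 tested genes were also followed together, as the mean of each library's centred log2 normalized CPM over these genes. It was 0.252, 0.439 and 0.193 in control and -0.479, -0.0385 and -0.366 in EV libraries, so that control library 2 and EV library 2 were the highest of their groups. The tested genes outside the list with the most similar pattern over the 6 libraries were Ino80, a chromatin remodeller (Pearson's r = 0.997), Ankrd11 (0.996), the chaperonin subunit Cct3 (0.994), the translation initiation factor subunit Eif3d (0.992) and the phosphatase Ctdsp2 (0.991). Ino80, Ankrd11 and Ctdsp2 fell, while Cct3 and Eif3d, at log2 fold changes of -0.61 and -0.68, did not pass. These correlations share the 6 libraries and their depth.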

How the data were processed

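Poly(A) RNA of 3T3-L1 cells was read as single reads of 50 nt in 3 control libraries (1, 2 and 3) and 3 EV libraries (1, 2 and 4), grouped by their labels. The authors deposited raw counts per gene, made with STAR on mm10 and Rsubread after FASTQC, and ran DESeq2 on them. Tool versions, annotation release and strand setting are not given in the sources used here. Each plate had its own preparation, and p-values measure the spread between these 6 plates.

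The quasi-likelihood F test of edgeR 4.0.16 (R 4.3.3; TMM scaling, filterByExpr, two-sided, no covariates) was run on the counts, with p-values adjusted over 5066 genes. SE is the log2 fold change over the root of F. Of the identifiers, 99.8% had a RefSeq symbol in GRCm38.p6 and 98.8% matched GENCODE vM21, which gave exons and transcripts. Library totals of 508599 to 665465 counts limit the precision, and the floor was set at 3 counts in a library. The 10 genes, the lists, the markers and the naming rule were chosen with earlier results of these data known. The rule named every gene of the 10, every called gene and isozyme of the lists (1 isozyme is not reported here), opposite-strand partners and the 5 genes most alike in pattern. The copies of Gapdh, the list genes named without a call and the marker examples were named after their values were seen. Alternatives were other scalings, DESeq2 1.42.0, other count filters, legacy and robust fits, a replicate block and each library left out. Fits were tested on simulated data drawn with as many genes raised as lowered, unlike the calls here. There edgeR recovered 26.0% of log2 changes of 0.5 and 77.2% of those of 1, and DESeq2 13.5% and 47.8%. Replicates differed by more than sampling noise (chi-square per degree of freedom 1.15 to 1.76).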

Additional observations from a re-analysis of the deposited data

How the results depend on the processing

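Gapdh and Pgk1 passed the threshold in all 16 alternatives, with an adjusted p of at most 8.4e-06 and 0.042. Tpi1 lost its call in 2, Ldha in 5 and Pkm in 7, and Pgam1 in 2 of the 15 that tested it, being left out by the filter of at least 10 counts. DESeq2's Wald test called 512 genes in place of 1121, 3 of the 10 glycolysis genes (Tpi1, Gapdh and Pgk1) in place of 6, and 3 genes of the pathway lists in place of 7. At least 10 counts in every library gave 632 genes and 2 list genes. Leaving out 1 library gave 496 to 1120 genes, 2 to 6 glycolysis genes, 3 to 8 list genes and a median log2 fold change of -1.02 to -0.59. The count was 2 without control 2 (Gapdh and Pgk1), 3 without EV 4 (Gapdh, Pgk1 and Pgam1), and for genes as a whole 715 without control 1, 496 without control 2 and 745 without EV 4. Other scalings moved the median of all genes by over 0.1, beside 732 lower and 389 higher. Scaling by the summed counts of the tested genes alone gave a median of -0.12, with 970 lower and 90 higher. TMM from genes without an opposite-strand overlap gave 0.19, with 543 lower and 1102 higher. With scaling by the summed counts of the tested genes alone, Gpi1 and Pfkp had log2 fold changes of -0.010 and -0.039. With TMM from genes without an opposite-strand overlap they had 0.30 and 0.27 and did not pass (adjusted p = 0.0971 and 0.0556, edgeR). Without control 1 Pfkp had -0.025, in a range of -0.025 to 0.15 over the fits with 1 library left out. The direction of both genes thus depends on these choices. The cause was not tested. Replicate numbers 1 and 2 were in both groups, but same-numbered libraries deviated together only weakly (r = 0.0714 and 0.0634), so that they are not taken as pairs. The fit with the replicate block called 1119 genes and the same 6 glycolysis genes. In it control 3 and EV 4 each had a block of their own, so that the change rested on the libraries numbered 1 and 2. At these depths a change was not detectable in counts listed under Eno1 alone. With the counts of Eno1b added, a setting chosen after the data were seen, the sum had a log2 fold change of -1.26 (adjusted p = 1.2e-05, edgeR). Most of that sum came from Eno1b, which passed on its own, so that the call does not bear on Eno1 alone.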
